A study of Mus musculus with 4 samples.

Results

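Distal intronic RUNX1 peaks are the stretches of intron, far from any gene start, at which RUNX1 was found by chromatin immunoprecipitation and sequencing (ChIP-seq) in the fetal mouse ovary. A peak was taken when its midpoint lay in an intron and in no exon of the curated RefSeq transcripts, and more than 10 kb but at most 100 kb from the nearest of their transcription start sites (TSSs). Of the 10490 peaks placed on chromosomes 1 to 19 and X, 503 (4.8%) met this rule. Every peak in the list is 300 bp wide, and coordinates are given on mm10, counted from 1. The closest peak left out on the near side lay in Cry2, 9881 bp from a TSS at a fold of 8.15, and the closest one kept lay in Bcas3, 10023 bp away at a fold of 8.79. On the far side, a peak in Ppm1h at 99409 bp (fold 39.62) was kept and a peak in Pknox2 at 101188 bp (fold 5.02) was not.

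The study compared RUNX1 ChIP with input chromatin in 2 replicates each. All samples were pooled XX gonads of CD1 embryos at E14.5, freed of the mesonephros, and the labels give no genetic change or treatment for any of them. Reads of both ChIP replicates were merged before peaks were called, so a peak has no value per replicate and the reads behind it are not known. The intervals and tests below therefore describe the peaks of 1 list, in which peaks are not biological replicates. Whole ovaries hold several cell types, and the cell type in which a peak was bound cannot be told apart.

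RUNX proteins bind DNA through a conserved Runt domain, together with the partner CBFB, at a short core that reads TGTGGT or TGCGGT. RUNX1 is known best from blood formation, and in the fetal ovary it is present in the pre-granulosa cells, the supporting cells that later surround the oocyte. Introns far from a promoter are common places for enhancers, short stretches of DNA that bind several transcription factors and act on a gene from a distance.

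The strongest peaks show how the core lies in these introns. The fold given with each peak is the ratio of ChIP to background signal from the peak caller. Whole peaks are printed 5′ to 3′ on the forward strand of mm10 for 4 of the 10 peaks of highest fold that held 2 or more cores, and for 1 of the 10 that held none, with RUNX cores in capitals (TGTGGT or TGCGGT, or their reverse complements).
Gm20125 intron 1, chr10:17012670-17012969, fold 66.64: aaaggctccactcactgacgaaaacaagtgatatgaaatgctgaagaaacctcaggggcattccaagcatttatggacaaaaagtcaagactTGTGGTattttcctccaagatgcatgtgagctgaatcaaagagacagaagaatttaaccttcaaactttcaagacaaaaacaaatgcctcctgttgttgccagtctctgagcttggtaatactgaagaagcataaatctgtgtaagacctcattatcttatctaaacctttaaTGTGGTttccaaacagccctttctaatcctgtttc
Tmtc4 intron 5, chr14:122951712-122952011, fold 34.25: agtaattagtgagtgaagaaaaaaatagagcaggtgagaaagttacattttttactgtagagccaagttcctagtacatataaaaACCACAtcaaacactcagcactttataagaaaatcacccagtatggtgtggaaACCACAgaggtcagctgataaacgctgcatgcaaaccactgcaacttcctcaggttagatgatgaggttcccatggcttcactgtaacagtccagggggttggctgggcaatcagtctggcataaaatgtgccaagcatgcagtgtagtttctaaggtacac
Palld intron 10, chr8:61662776-61663075, fold 28.39: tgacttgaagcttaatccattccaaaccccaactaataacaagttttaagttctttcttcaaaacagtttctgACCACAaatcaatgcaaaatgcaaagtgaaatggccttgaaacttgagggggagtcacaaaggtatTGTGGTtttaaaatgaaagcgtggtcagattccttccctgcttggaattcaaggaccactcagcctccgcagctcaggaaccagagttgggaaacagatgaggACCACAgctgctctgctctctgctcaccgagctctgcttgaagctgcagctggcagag
Slc24a3 intron 12, chr2:145607907-145608206, fold 27.77: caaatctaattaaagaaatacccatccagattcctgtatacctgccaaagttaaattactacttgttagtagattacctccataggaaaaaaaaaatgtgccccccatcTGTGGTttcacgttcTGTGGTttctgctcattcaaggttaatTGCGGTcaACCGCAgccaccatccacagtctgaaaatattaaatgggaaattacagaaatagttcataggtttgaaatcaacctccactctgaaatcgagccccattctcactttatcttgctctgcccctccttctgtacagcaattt
Ppm1h intron 6, chr10:122886165-122886464, fold 39.62, without a core: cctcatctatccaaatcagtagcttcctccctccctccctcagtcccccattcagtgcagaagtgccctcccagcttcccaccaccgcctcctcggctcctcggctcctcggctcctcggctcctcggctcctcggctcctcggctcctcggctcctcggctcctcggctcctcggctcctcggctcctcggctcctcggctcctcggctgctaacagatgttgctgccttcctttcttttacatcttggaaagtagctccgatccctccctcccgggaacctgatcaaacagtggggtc

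The peak of highest fold lay in the noncoding gene Gm20125 and held 2 cores, 1 of them near letters bound by GATA factors. The peak in Slc24a3, which encodes an exchanger of sodium, calcium and potassium, held 4 cores, 2 of each form. The peak in Palld, the gene of the actin-binding protein palladin, held 3. The peak in Ppm1h, a phosphatase gene, held no core and was instead filled in part by an 8 bp unit, ctcctcgg, in 15 tandem copies over 120 bp. No other distal intronic peak held a tandem run of at least 60 bp. Its p-value from the peak caller, 1.24e-253, was the lowest of the named peaks although its fold ranked 3.

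Cores with 10 bases on either side are printed next for 6 more peaks, read on the strand of the core, with the core in capitals. They cover the genes named by the study that host a distal intronic peak (Runx2, Itpr2 and Dmrt1) and peaks of both core forms in regulators of transcription and of blood cells.
Runx2 intron 3, chr17:44677922-44677947, minus strand, fold 8.79: gggcctgcctTGTGGTtagcactggc
Itpr2 intron 2, chr6:146461267-146461292, minus strand, fold 6.17: gtttatagtcTGTGGTtttcatggta
Dmrt1 intron 2, chr19:25545764-25545789, minus strand, fold 6.29: aataaaaagaTGTGGTtaaggggcag
Nfia intron 1, chr4:97751272-97751297, plus strand, fold 13.63: gcggagcggtTGCGGTtaagcagcac
Ptprc intron 1, chr1:138136584-138136609, plus strand, fold 12.26: gcgcagctcaTGCGGTtaagcacaga
Prdm2 intron 5, chr4:143162261-143162286, minus strand, fold 35.87: gacagctgttTGCGGTcggcgcgccg

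Measured by fold, RUNX1 occupied distal introns about as strongly as the other places it bound. The fold of the 503 peaks ran from 4.01 to 66.64 with a median of 6.29 (quartiles 4.86 and 8.81), beside a median of 5.97 for the 776 distal intergenic peaks, which lie at the same distances from a TSS but in no transcript, and of 6.48 for the 7893 peaks within 1 kb of a TSS. The very strongest peaks lay elsewhere, since the highest fold was 133.29 among the intergenic peaks and 358.22 near a TSS. Among distal intronic peaks, 157 had a fold of at least 8 (31.2%, exact 95% interval 27.2 to 35.5), as had 32.1% of all placed peaks. The share did not differ detectably from that of the intergenic peaks (30.0%, two-sided Fisher's exact p = 0.664, odds ratio 1.06 with 95% limits of 0.822 and 1.36) or of the peaks near a TSS (32.1%, odds ratio 0.959, 0.784 to 1.17, p = 0.694). Against the peaks near a TSS this depended on the limit. A fold of at least 16 was more frequent in distal introns (7.36% against 5.09%, Fisher's exact p = 0.0379). Identical pairs of fold and peak caller p-value recurred past this limit, such as 17.59 with 1.28e-17 in Cldn10, Hunk and Nos1. The reads behind such values are not known. The p-value of the peak caller gave another order. It was under 1e-20 for 84 of 503 distal intronic peaks, 159 of 776 intergenic peaks and 2924 of 7893 peaks near a TSS, so the share was lowest in distal introns.

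Distal intronic peaks carried the RUNX core far more often than the intron around them. The core was present on either strand in 319 of 503 peaks (63.4%, exact 95% interval 59.0 to 67.6), beside 39.9% of all placed peaks and 22.8% of 179311 windows of 300 bp laid over the same kind of intron sequence. Compared with its own window 1 kb to the right, which 497 peaks had free of other peaks, 316 peaks and 115 windows held a core (63.6% against 23.1%, exact McNemar test, two-sided, p = 7.33e-36). In 242 pairs only the peak held it, and in 41 only the window. The difference of 40.4 percentage points changed little with the base composition, which differed between peaks and windows (mean GC 53.6% and 47.0%). It was 41.1 points in the 231 pairs with 45% to 60% GC on both sides, a range applied here after the data had been seen.

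The cores gathered at the middle of the peaks, as the plot of core density by distance shows. Within 50 bp of the centre there were 0.513 cores per 100 peaks per bp, and between 500 and 1000 bp away 0.106. The corresponding densities were 0.448 and 0.0970 for distal intergenic peaks and 0.178 and 0.0837 for peaks near a TSS. Of the 444 cores inside distal intronic peaks, 258 (58.1%, exact 95% interval 53.4 to 62.7) lay less than 50 bp from the centre, a zone that makes up 33.3% of the width. A core read in the direction of the host gene in 57.7% of cases (256 of 444, 52.9 to 62.3), and cores in the introns 150 to 1000 bp from these centres did so as often (57.3% of 889, 53.9 to 60.5).

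**Figure D1:**
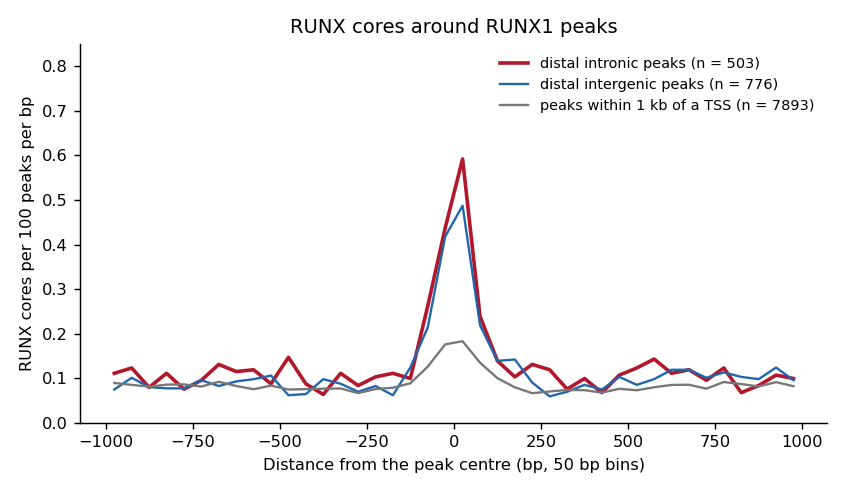
RUNX cores per 100 peaks per bp (y axis) in 50 bp bins by distance from the peak centre (x axis, bp) for distal intronic peaks (red), distal intergenic peaks (blue) and peaks within 1 kb of a TSS (grey). The red line reached 0.592 in the 50 bp to the right of the centre, the blue line 0.487 and the grey line 0.183, and all stayed under 0.15 beyond 200 bp.

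Peaks with a core had a higher median fold than peaks without. The median fold was 5.55 in the 184 peaks without a core, 6.66 in the 219 with 1, 6.63 in the 80 with 2 and 7.40 in the 17 with 3, while 2 peaks held 4 and 1 peak, in intron 15 of the cadherin gene Cdh23 (fold 5.06), held 6. From the lowest to the highest quartile of fold, the share of peaks with a core was 52.3%, 60.2%, 63.6% and 77.8%, and the mean GC content was 55.3%, 53.5%, 53.6% and 51.8%. These are descriptions over the peaks of 1 list, with no test. Where a peak held 2 cores, their starts were 7 to 246 bp apart (median 58.0), and 47 of 80 such pairs lay on 1 strand.

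**Figure D2:**
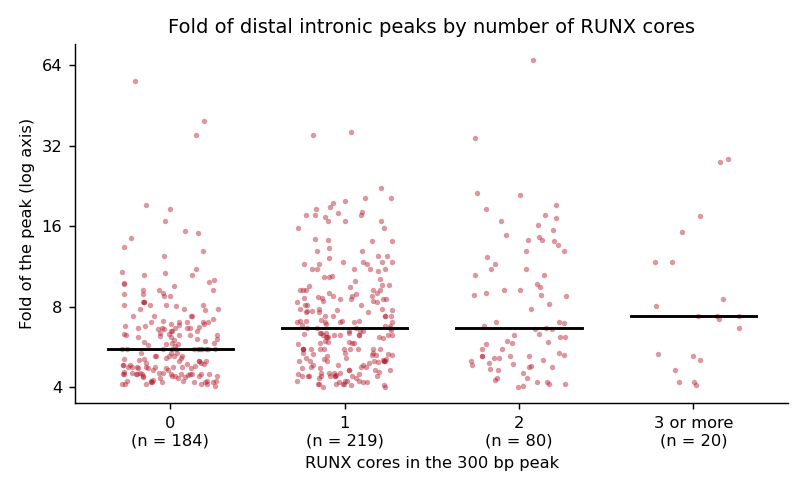
Fold of each distal intronic peak (y axis, log scale) by the number of RUNX cores in it (x axis), with 1 point per peak and a black line at the median. The groups overlap over most of their range, and the peaks without a core include folds of 55.54 and 39.62.

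Both forms of the core were more frequent in the peaks than beside them, and they set distal introns apart from gene starts in different ways. TGTGGT lay in 48.1% of 497 peaks and 21.5% of their windows (exact McNemar test, p = 1.76e-18), and TGCGGT, which contains a CpG, in 22.1% and 2.21% (p = 1.06e-21). Near a TSS the order of the forms was turned round. TGTGGT was found in 47.9% of distal intronic peaks and 13.1% of peaks within 1 kb of a TSS (Fisher's exact p = 6.08e-73, odds ratio 6.11 with 95% limits of 5.04 and 7.39), whereas TGCGGT was found in 22.1% and 23.4% (odds ratio 0.925, 0.738 to 1.15, p = 0.514). Together the forms gave 63.4% against 34.1% (odds ratio 3.35, 2.77 to 4.06, exact p = 3.60e-38). The peaks near a TSS were richer in GC (mean 67.2%), and among peaks of 45% to 60% GC the shares were 64.5% of 344 and 47.9% of 918 (odds ratio 1.98, 1.52 to 2.58, exact p = 1.38e-07). The forms were not compared singly with peaks near a TSS in this range. In the intron windows, TGTGGT lay in 21.4% and TGCGGT in 1.90%.

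Against distal intergenic peaks the share of the core was not detectably different, 63.4% against 59.4% (Fisher's exact p = 0.159, odds ratio 1.18 with 95% limits of 0.934 and 1.5). TGTGGT alone was more frequent in the introns (47.9% against 40.3%, odds ratio 1.36, 1.08 to 1.72, exact p = 0.00792), as was the core followed by T, TGTGGTT or TGCGGTT (38.4% against 30.9%, p = 0.00650). TGCGGT was not (22.1% against 24.0%, exact p = 0.456). With peaks of 45% to 60% GC, or without peaks near a predicted start, both applied after the data had been seen, the difference in the core as a whole was -1.40 and 0.321 percentage points.

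The bases around the core were uneven as well. The base after the core was T in 50.2% of the 444 cores in distal intronic peaks, in 44.2% of the 617 in distal intergenic peaks, in 25.3% of the 3169 in peaks near a TSS and in 31.1% of the 47473 in the intron windows. The next base was T in 39.9% and A in 32.9% of the cores in distal intronic peaks, against 30.9% and 22.6% in the intron windows. The base before the core was G in 10.1% of cores in distal intronic peaks and in 24.0% of those in intron windows. Of the cores printed above in short stretches, those of Runx2, Dmrt1, Nfia and Ptprc were followed by ta, that of Itpr2 by tt and that of Prdm2 by cg. Cores in the whole peaks printed above varied too, such as the first in Gm20125, followed by at.

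Besides the RUNX core, sites of CTCF and of NR5A factors were more frequent in the peaks than in the intron beside them, and the other sites searched did not pass this test. CTCF organizes chromatin loops, and the NR5A factors SF1 and LRH-1 are nuclear receptors of the gonad. Sites were searched on both strands as CAAGGTCA or CAAGGCCA for NR5A, AGGAATG or GGGAATG for TEAD, AGATAA or TGATAA for GATA factors, TGTTTAC or TATTTAC for forkhead factors, TAATTA for homeobox, AACAATG or AACAATA for SOX, TGACTCA or TGAGTCA for AP-1, CCGGAAGT for ETS and CCAAT for NFY factors, with the known consensus for CTCF. GTGTTG or GTGTCG and TGTGTG or TGCGTG, the core with its letters in another order, were searched as controls. Some of these strings can overlap each other, and a match is a description of letters, not evidence that a factor was bound.

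A CTCF site was found in 21 of 497 peaks and in 1 of their windows (4.23% against 0.201%, exact McNemar test, Benjamini-Hochberg adjusted over 12 sites, p = 1.32e-04), and in 0.161% of the intron windows. An NR5A site was found in 69 peaks and 31 windows (13.9% against 6.24%, exact test, adjusted p = 7.93e-04), and in 4.70% of the intron windows. TEAD sites, bound by the factors of the Hippo pathway, gave 16.3% against 10.9% (exact test, adjusted p = 0.0635, or 0.0106 with peaks wholly outside exons and 0.0474 with the left window). GATA sites gave 28.0% against 24.3% (exact test, adjusted p = 0.385) and forkhead sites, of the kind bound by FOXL2, 8.25% against 8.45% (adjusted p = 1). SOX (4.43% against 7.65%), AP-1 (3.62% against 6.04%), NFY (29.0% against 34.6%), homeobox (8.45% against 6.84%) and ETS sites (0.604% against 0.201%) did not pass the test, nor did the shuffled cores (15.7% against 13.7% and 33.6% against 36.6%). In the 155 pairs with a fold of at least 8 neither CTCF nor NR5A passed (exact test, adjusted p = 0.375 for both), and NR5A did not pass among the 231 pairs of 45% to 60% GC (13.9% against 6.93%, adjusted p = 0.120). Among windows of 45% to 60% GC, forkhead sites lay in 9.01% of 344 peaks and 5.81% of 68496 intron windows, with no test. In the same windows, GATA sites lay in 27.3% and 20.3%, and homeobox sites in 7.85% and 4.06%. SOX (4.36% and 7.27%), NFY (29.1% and 33.3%) and AP-1 sites (3.78% and 5.54%) went the other way.

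**Figure D3:**
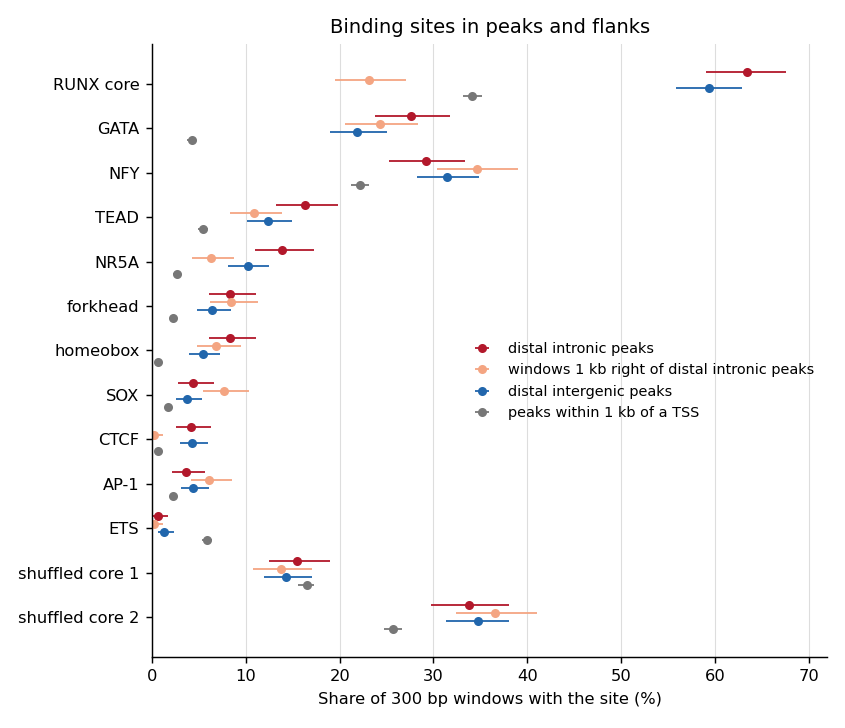
Share of 300 bp windows that held each site (x axis, %) in distal intronic peaks (red), the windows 1 kb to their right (orange), distal intergenic peaks (blue) and peaks within 1 kb of a TSS (grey), with exact 95% intervals as bars. The RUNX core lies at 63.4% in distal intronic peaks and 23.1% in their flanking windows, and the red and blue intervals overlap for every site.

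Distal intronic and distal intergenic peaks did not differ detectably in any of the 12 other sites after adjustment (Fisher's exact test, lowest adjusted p = 0.171). Unadjusted exact p-values under 0.05 were reached by 3 of them, GATA (27.6% against 21.9%, p = 0.0229), homeobox (8.35% against 5.41%, p = 0.0489) and NR5A (13.9% against 10.2%, p = 0.0494). CTCF sites were about as frequent in both classes (4.17% and 4.25%, odds ratio 0.981, 95% interval 0.533 to 1.77). Peaks within 1 kb of a TSS differed in 10 of the 12. They held fewer GATA (4.21%, odds ratio 8.69, exact test, adjusted p = 3.97e-62), NR5A (2.62%, odds ratio 6), TEAD (5.44%, odds ratio 3.39), forkhead (2.23%, odds ratio 3.99), CTCF (0.583%, odds ratio 7.43) and homeobox sites (0.621%, odds ratio 14.6), and more ETS sites (459 of 7893 peaks against 3 of 503, odds ratio 0.0972, 0.0199 to 0.288). A shuffled core passed this test too (33.8% against 25.7%, odds ratio 1.48, exact test, adjusted p = 1.27e-04), and for NFY sites the direction turned from 29.2% against 22.2% to 29.1% against 35.5% among peaks of 45% to 60% GC. The intron windows, at a mean of 42.7% GC, held GATA sites in 31.6%, homeobox sites in 9.99% and forkhead sites in 9.79%. These shares exceeded those of distal intronic peaks (27.6%, 8.35% and 8.35%). For TEAD (10.7%), NR5A (4.70%) and CTCF sites (0.161%) the intron windows held less than distal intronic peaks.

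Within distal intronic peaks, TEAD sites lay less than 50 bp from the centre in 47.2% of cases (42 of 89, exact 95% interval 36.5 to 58.1) and NR5A sites in 44.7% (34 of 76, 33.3 to 56.6), beside 33.1% of 166 NFY sites and 34.0% of 47 forkhead sites. Of the 21 peaks with a CTCF site, 18 also held a RUNX core. GATA sites were found in 33.5% of the peaks with a core and 17.4% of those without, NR5A sites in 14.4% and 13.0%, and TEAD sites in 16.6% and 15.8%. Peaks with a core had a mean GC content of 51.5% and those without of 57.1%, and the part of base composition in these shares was not tested. No site of any kind was found in 65 peaks, whose mean GC content was 60.6%.

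The map of the 30 peaks of highest fold shows the place of the sites peak by peak. Their folds ran from 17.28 to 66.64. A core was present in 25 of them, and in 20 at less than 50 bp from the centre. Among all 503 peaks, 63.4% held a core. The 5 without a core lay in Herc6, Ppm1h, Nim1k, Macroh2a2 and Fam110b. GATA sites were present in 11 of the 30, TEAD and forkhead sites in 4 each, and NR5A and CTCF sites in 2 each. The shares in all 503 peaks were 27.6% for GATA, 16.3% for TEAD, 8.35% for forkhead, 13.9% for NR5A and 4.17% for CTCF sites.

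**Figure D4:**
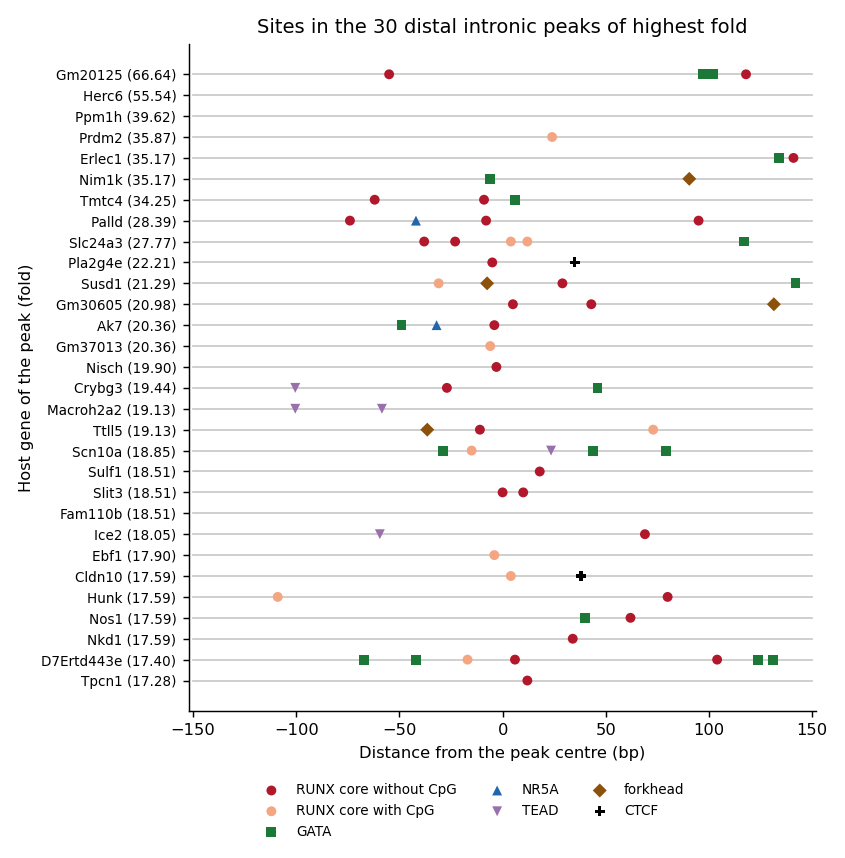
Positions of sites within the 300 bp of the 30 distal intronic peaks of highest fold (x axis, bp from the peak centre), each named by its host gene with its fold (y axis). RUNX cores without a CpG (red circles) and with one (orange circles) cluster around 0, and 5 of the 30 peaks hold no core.

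Distal intronic peaks lay in sequence that was rich in CpG and poor in repeats for an intron. Their mean GC content was 53.6% (SD 8.36, n = 503 peaks), against 47.0% in the windows beside them and 42.7% in the intron windows. The median number of CpGs was 6, beside 2 in the intron windows, 9 in distal intergenic peaks and 29.0 in peaks near a TSS. Repeats made up 8.69% of the bases in the peaks, 21.7% beside them and 28.8% in the intron windows. Reads were kept only where they mapped to a single place, and 7 peaks had at least 50% of their bases in repeats. The peak in Erlec1, a lectin gene of the endoplasmic reticulum, was such a case, with 82.3% and a fold of 35.17.

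Being distal depended in part on the gene models. Although each of the 503 peaks was over 10 kb from a curated TSS, 101 of them (20.1%) lay within 1 kb of a start of a predicted RefSeq transcript (51 peaks) or a GENCODE transcript (87 peaks). These 101 had a mean GC content of 60.5% and 17.2 CpGs on average, against 51.8% and 6.65 in the other 402. They held a core in 59.4%, against 64.4% (Fisher's exact p = 0.357, odds ratio 0.808 with 95% limits of 0.506 and 1.3), and their median folds were 5.98 and 6.30. The peaks in Prdm2 (38 CpGs, 98 bp from such a start), Foxn3 (22 and 31 CpGs) and Rere (31, 21 and 26 CpGs) belonged to them, as did those in Tmtc4 (257 bp), Itgb5 (243 bp), Hdac9 (243 bp), Bcor (463 bp) and the weakest in Ppm1h (688 bp). The midpoint rule also let 44 peaks reach into an exon, and 13 peaks overlapped a feature that RefSeq annotates as an enhancer.

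Placed on the genes, the 503 peaks lay in introns of 475 genes, which is 3.65% of the 13001 genes with any intron sequence at the required distance. Peaks lay in the introns of protein-coding hosts in 474 cases. Counting each peak once, under the transcript that leads at its position, 400 genes held 1 peak, 35 held 2 and 11 held 3. The distance to the nearest TSS ran from 10.0 to 99.4 kb (median 28.7, quartiles 18.1 and 47.7). That TSS belonged to the host gene for 325 peaks (64.6%, exact 95% interval 60.3 to 68.8) and to another gene for 178, among them 28 of microRNA genes. The first intron of the host held 139 peaks (27.6%, 23.8 to 31.8), and first introns made up 23.9% of the sequence in which a peak could be counted. The second intron held 81, the third 56, and introns beyond the tenth 90.

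The density was 0.935 peaks per Mb of such sequence (503 peaks in 537.9 Mb), beside 1.21 per Mb for distal intergenic peaks and 146.7 per Mb within 1 kb of a TSS. Among chromosomes it was lowest on X (9 peaks, 0.4 per Mb) and highest on chromosomes 4 (48 peaks, 1.5 per Mb) and 11 (42 peaks, 1.47 per Mb). Of the host genes, 237 of 475 (49.9%) also had a RUNX1 peak within 1 kb of one of their own TSSs. Other genes with sequence at the required distance had one in 43.1% of 12526 cases, and held less of it (median 20.2 kb against 75.4 kb).

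Gene lists were read against the 3.65% of all genes that host a peak and the density of 0.935 per Mb, since long genes have more room. The lists were made with earlier results of these data known, so their counts are descriptions and no test was made. Among the lists, 5 had no host among their chosen members, those of the bipotential gonad (0 of 13), of germ cells (0 of 11), of the BMP, activin and TGF-beta pathway (0 of 28), of the insulin, IGF and PI3K pathway (0 of 24) and of the extracellular matrix (0 of 32 genes, in 2.65 Mb). These zeros hold for the listed genes only, since matrix genes outside the list, such as Tnxb (fold 9.26) and Eln (fold 5.32), were hosts. Most others had a density above that of all genes. It was 4.53 per Mb for the Notch and Hedgehog pathway (4 of 19 genes) and 3.53 for the Hippo pathway (5 of 24). Zinc finger and other broad transcription factors gave 3.12 (6 of 31), focal adhesion and actin linker genes 3.09 (6 of 26) and chromatin regulators 2.83 (6 of 35). The WNT list (1 of 30 genes, 0.511 per Mb) lay below that of all genes. This too holds for the listed genes only, since the WNT genes Nkd1 (fold 17.59) and Wnt3a (fold 4.53), outside the list, were hosts.

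**Figure D5:**
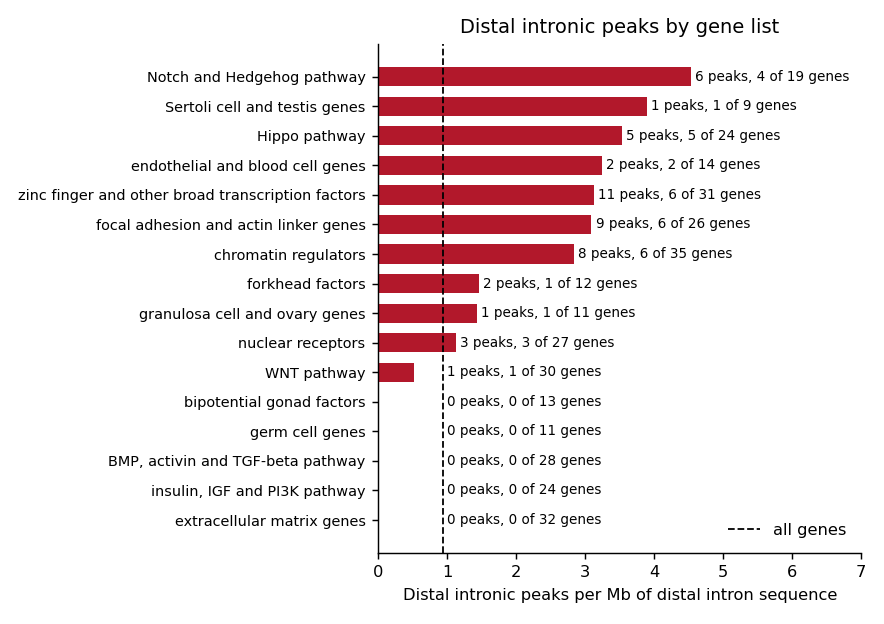
Distal intronic peaks per Mb of intron sequence at the required distance (x axis) for gene lists (y axis), with the number of peaks and host genes beside each bar and the value of all genes, 0.935, as a dashed line. Several bars rest on 1 or 2 peaks, and 5 lists have none.

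The lists of ovary and testis genes had 1 host each, among few genes with sequence at the required distance, beside the 3.65% of all genes. Among granulosa cell and ovary genes it was 1 of 11 (9.09%, 1.43 peaks per Mb), Itpr2, which encodes a receptor that releases calcium from the endoplasmic reticulum. Its peak in intron 2 (chr6:146461067-146461366, fold 6.17), 41.0 kb from the TSS, held 1 TGTGGT core, a forkhead site and a CCAAT. Among Sertoli cell and testis genes it was 1 of 9 (11.1%, 3.89 peaks per Mb), Dmrt1, a transcription factor that maintains the male fate of the gonad. Its peak in intron 2 (chr19:25545623-25545922, fold 6.29), 40.1 kb from the TSS, held 1 TGTGGT core with a CTCF and a TEAD site. The midpoint of this peak lay 46 bp from an exon edge, so the peak reached into the exon. The study described a Dmrt1 site shared by FOXL2 and RUNX1 near the promoter, and peaks of both factors in common at Itpr2. The folds of 6.17 and 6.29 were near the median of the class. Outside these lists, Lhcgr, the gene of the luteinizing hormone receptor, was a host at a fold of 11.57.

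Among RUNX factors, Runx2, the family member that directs bone formation, held a peak in intron 3 (chr17:44677801-44678100, fold 8.79), 58.2 kb from the nearest TSS, with 1 TGTGGT core and an NR5A site.

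In the Hippo pathway, whose TEAD factors act with YAP and TAZ, the hosts included the kinase gene Stk4 (intron 10, fold 7.03, without a core), the angiomotin family gene Amotl1 (intron 3, fold 6.17, with 2 cores and a TEAD site) and Vgll4, a TEAD cofactor gene (intron 2, fold 5.97, with 1 core of each form). Tead1 and Tead4 themselves were the other hosts. In the Notch and Hedgehog list, the Notch coactivator gene Maml3 held 3 peaks, at folds of 12.34 and 4.41 in intron 1 and 9.26 in intron 2. Boc, a Hedgehog coreceptor gene, held 1 in intron 1 (fold 9.26, without a core), and Smo, the Hedgehog signal transducer, 1 in intron 3 (fold 4.63, with a TGCGGT core). Gli2 was the remaining host. Of the 6 peaks of this list, 4 held a core, beside 63.4% of all distal intronic peaks.

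Genes of cell adhesion and the actin skeleton carried 9 peaks, 6 of them with a core, beside 63.4% of all distal intronic peaks. Palld held a peak of fold 6.17 in the same intron as the strong one printed above. Tns3, a tensin gene, held 2 in intron 1 (folds 12.96 and 4.88), the stronger with 2 TGCGGT cores and 36 CpGs and 809 bp from a predicted or GENCODE start. Itgb5, an integrin gene, held 1 in intron 5 (fold 11.52), 62.5 kb from the nearest curated TSS but 243 bp from a predicted or GENCODE start, with a TGCGGT core and an NR5A site. Outside this list, Shroom3, which shapes epithelial cells through apical actin, was among the hosts with 3 peaks (folds 11.11, 9.26 and 8.33).

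Transcription factors and chromatin regulators were hosts in several lists. Nfia held 3 peaks, and only the strongest, in intron 1 (chr4:97751183-97751482, fold 13.63), held cores, 1 of each form. Nfib, its relative, held 2 in intron 2 (folds 16.66 and 5.55), each with 1 TGTGGT core and a GATA site. Etv6, an ETS repressor gene, held 3 (folds 8.33, 4.86 and 4.01). Among forkhead genes, Foxn3 was the only host of 12 (8.33%, beside 3.65% of all genes). It held 2 peaks in intron 1 (folds 10.08 and 8.10), both without a core. Nuclear receptor hosts were 3 of 27 genes (11.1%), at 1.13 peaks per Mb beside 0.935 for all genes. They were Rxra (intron 4, fold 7.40), Esrrg (intron 2, fold 6.40) and Rora (intron 2, fold 4.50), of which Rora had no core. The 3 chromatin regulators of highest fold were Rere (9.79), Hdac9 (7.10) and Bcor (6.48), and their peaks of highest fold had 26, 27 and 20 CpGs.

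Among endothelial and blood cell genes, 2 of 14 were hosts (14.3%, 3.24 peaks per Mb), beside 3.65% and 0.935 per Mb for all genes. These values rest on 2 peaks. Ptprc, the gene of the leukocyte antigen CD45, held a peak in intron 1 (chr1:138136536-138136835, fold 12.26), 38.4 kb from the TSS, with 2 TGCGGT cores. Eng, the gene of endoglin, held 1 in intron 2 (fold 6.29) without a core. Daam1, a formin gene of noncanonical WNT signalling and the only host of its list, held a peak in intron 23 (fold 13.27), 87.6 kb from the nearest TSS.

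The remaining peaks among the 10 of highest fold lay in genes of varied function. Herc6, a ubiquitin ligase gene, held the peak of fold 55.54 in intron 13 (chr6:57641781-57642080), without a core. Prdm2, a histone methyltransferase gene, held the peak of fold 35.87 in intron 5 (chr4:143162100-143162399), with 1 TGCGGT core at 70.3% GC. Nim1k, a kinase gene, held a peak of fold 35.17 in intron 2, without a core and with a forkhead and a GATA site. Pla2g4e, a phospholipase gene, held peaks of fold 22.21 in intron 17, with a CTCF site, and of fold 4.40 in intron 12, each with 1 TGTGGT core. Ppm1h held 2 more peaks besides the one printed above, at folds of 16.66 and 4.73 with 1 core each, and Bcas3 held 3 (folds 11.72, 8.79 and 4.94) with 2 or 3 cores each.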

How the data were processed

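The authors sequenced RUNX1 ChIP and input libraries of E14.5 ovaries, mapped single-end reads to mm10 at unique positions with Bowtie 1.2, removed duplicates with Picard 1.110, merged the replicates, called peaks with HOMER 4.9, reset them to 300 bp and kept those enriched over both input and the surrounding reads. The processing notes also name bedtools 2.24.0. The deposited list gives each peak a fold (a ratio to background) and a p-value, both from the peak caller. Sequence without a unique match and weaker binding are thus missing from the list. Depth per peak is unknown, so intervals cover the number of peaks only, and 4 peaks off the assembled chromosomes were left out.

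Peaks were placed on 45657 curated RefSeq transcripts of 26089 genes on GRCm38, the mm10 assembly, with Python 3.11.15 and SciPy 1.17.1. Sequences are from RefSeq, and soft-masked bases counted as repeats. Intron windows of 300 bp were laid every 3000 bp over intron sequence that the rule allows. Sites were searched by string on both strands. Exact McNemar and Fisher's exact tests were two-sided, with 0.05 as threshold and Benjamini-Hochberg adjustment over the 12 other sites. The scripts were tested on simulated data. Genes named are the hosts of the 10 peaks of highest fold, the 5 hosts with the most peaks, up to 3 hosts per gene list and hosts that the study's text names; other names were added after values were seen. The members, lists and sites were chosen with earlier results of these data known. Of the genes and lists so chosen, some are not reported here.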

Additional observations from a re-analysis of the deposited data

How the results depend on the processing

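No paired analysis was possible because the reads of both RUNX1 replicates were merged before peaks were called, and leaving out a replicate was not possible for the same reason. Of 300 values for single sites under an alternative, 278 kept their side of the threshold with no called value changing sign, 11 lost the call, 10 gained it and 1 reversed. The core share kept its direction and its side of the threshold in every alternative against the flanks (differences of 19.9 to 55.5 percentage points). Against peaks within 1 kb of a TSS it did so in all but TGCGGT only, where the difference was -1.37 points. Against distal intergenic peaks it passed with TGTGGT only (7.58 points) and with the longer core (7.44 points), and in no other alternative. The share with a fold of at least 8 against peaks near a TSS turned to 2.26 points with 16 as limit. It was 21.3 points with p-values under 1e-20, but that limit kept 84 of 503 and 2924 of 7893 peaks by a value from the same signal as the fold, so nothing is read from it. NFY sites turned to -6.44 points against peaks near a TSS of 45% to 60% GC.

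Against the flanks, 2 other sites passed, and 4 did over 20 kb from a TSS (CTCF, NR5A and TEAD higher, AP-1 lower), 0 with a fold of at least 8, 0 with p-values under 1e-20 and 1 in pairs of 45% to 60% GC. With fewer pairs (155, 82 and 231) the tests also had less to work with. The number of peaks was 157 with a fold of at least 8 and 84 with p-values under 1e-20, and the host genes numbered 169 and 106, or 314 over 20 kb from a TSS. The share in the first intron was 23.2% with predicted transcripts added, 23.3% over 20 kb from a TSS and 33.1% with a fold of at least 8. The alternatives on base composition for flanks and intergenic peaks, and without the peaks near predicted or GENCODE starts, were chosen after seeing the data. Causes of these changes were not tested unless named. The list limits all values to binding past the authors' filters, and a gene without a peak may still be bound.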
